A study of Drosophila melanogaster with 2 samples.

Results

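The juvenile hormone binding protein genes of Drosophila melanogaster, named Jhbp, were followed on 2 head arrays, 1 from unexposed males and 1 from males fed the herbicide paraquat. Members were all probe sets whose annotation held a single gene symbol beginning with Jhbp. That gave 13 probe sets of 12 genes, out of 13966 non-control probe sets and 10844 genes with a probe set to themselves, with Jhbp6 read by 2 probe sets and every other gene by 1. Each member was chosen by its symbol and not by its own value. The family as a whole was selected on the ratios of these same arrays, which were known when it was proposed, so those ratios are given as a description and no test is attached to them.

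Juvenile hormone is a sesquiterpenoid made in the corpora allata, a gland behind the brain, and it regulates metamorphosis in larvae and reproduction in adults. In moths a haemolymph protein binds the hormone and carries it between tissues. The Drosophila Jhbp genes were named for the domain they share with that carrier, a domain also found in takeout, a secreted protein of the male head fat body that acts in feeding and courtship. Whether each fly protein binds the hormone is not shown by expression data.

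Both arrays were Affymetrix DrosGenome1 GeneChips, each holding poly(A) RNA from pooled heads of adult w1118 males, a laboratory stock also written w118 in the labels. Both groups therefore carry a mutation of the white eye-colour gene. Newly eclosed males, less than a day old, were housed in darkness at 25 °C and 70% humidity, about 200 to a bottle. The unexposed group was harvested at adult day 3. The paraquat group was given sucrose with 15 mM paraquat from adult day 2 for 30 h and harvested at adult day 3. Paraquat cycles between redox states in cells and generates superoxide, and served in the study as the source of oxidative stress. The labels place the unexposed flies in food bottles and the paraquat flies on sucrose, but the paraquat labels also name a control on regular sucrose, and whether the unexposed array is that control is not stated. On the food-bottle reading, diet and paraquat cannot be told apart. No array labelled as plain sucrose was analysed here. Each group held 1 array, so no difference has a replicate check and the spread between flies is unknown.

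Values are intensities in arbitrary units, scaled to the same median on both arrays. A probe set counted as measured on an array at or above a floor of 477, and 7425 probe sets were measured on both. Ratios are paraquat over unexposed. The error given with each ratio is 1 SE of array error, built from control probe sets, and it leaves out variation between flies and between RNA preparations. In keeping with the head label, 7 photoreceptor genes were bright on both arrays. They ran from inaD (23392 unexposed, 17293 with paraquat) to Arr1 (165485 and 165113). None was past 2-fold, and their median log2 ratio was -0.10. The 5 measured neuronal genes had a median of -0.21, while brp was under the floor on the unexposed array in all its probe sets. Whether the samples held heads alone was not tested, and transcripts of an organ outside the head are given below.

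Of the 13 Jhbp probe sets, 8 were measured on both arrays, 1 (Jhbp5) on the unexposed array alone and 4 on neither. Jhbp13, Jhbp14, Jhbp11, Jhbp3 and Jhbp1 were at least 2-fold lower on the paraquat array, and none of the 8 was 2-fold higher. Among all 7425 measured probe sets, 8.22% were at least 2-fold lower and 8.15% at least 2-fold higher. The median log2 ratio of the 8 members was -1.44, beside 0.03 over all measured probe sets. All 8 ratios lay below 0, as did 47.9% of all measured probe sets, but that of Jhbp12 was too close to 0 to have a direction and was 0.02 in the deposited values before the median scaling.

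**Figure D1:**
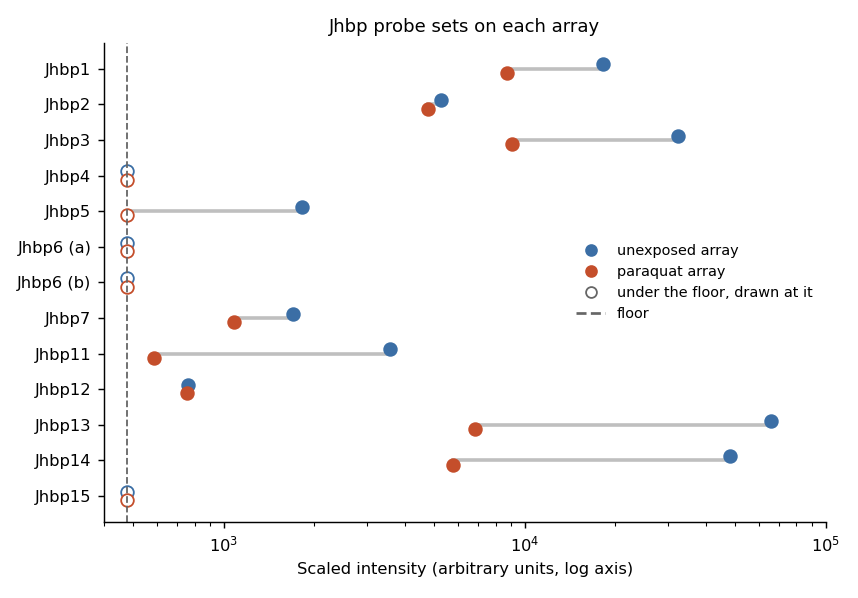
Scaled intensity (arbitrary units, log axis) of each Jhbp probe set on the unexposed array (blue) and the paraquat array (orange), with open circles for values under the floor of 477 (dashed line), drawn at the floor. Jhbp13 and Jhbp14 show the widest gaps among the probe sets measured on both arrays, while both points of Jhbp2 and of Jhbp12 lie close together.

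Jhbp13 (CG5945) and Jhbp14 (CG5867) had the lowest ratios of the members measured on both arrays. Jhbp13 stood at an intensity of 66047 in unexposed heads and 6826 in paraquat heads. It was 9.68-fold lower with paraquat (log2 -3.27 ± 0.14), so that 10.3% of its unexposed signal remained. Its ratio was the 24th lowest of the 7425. Probe sets under the floor with paraquat have no rank here, among them that of the gene fit (at least 96.5-fold lower).

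Jhbp14 gave 48298 without and 5774 with paraquat. It was 8.36-fold lower (log2 -3.06 ± 0.15) and its ratio was the 36th lowest of the same 7425. On both arrays the signals of these genes were far above the highest absent control (a probe set against RNA that the sample lacks), which read 446 (unexposed) and 533 (paraquat). The log2 ratios of Jhbp13 and Jhbp14 differed by -0.21 ± 0.20 of array error, with a 95% interval from -0.61 to 0.19 that includes 0. The ratio of Jhbp11 was not separated from that of Jhbp13 either (difference 0.67 ± 0.91, from -1.12 to 2.46), and Jhbp5 has only a bound.

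Jhbp3 (CG14661), Jhbp1 (CG1124) and Jhbp2 (CG2016) form a run of adjacent genes, and their ratios differed from each other. Jhbp3 was 3.55-fold lower, from 32317 to 9098 (log2 -1.83 ± 0.13). Jhbp1 was 2.08-fold lower, from 18176 to 8729 (log2 -1.06 ± 0.13), just past the 2-fold mark. Jhbp2 read 5277 unexposed and 4772 with paraquat, a log2 ratio of -0.15 ± 0.19 whose 95% interval of array error, from -0.51 to 0.22, includes 0.

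The gaps within this run were wider than array error. The log2 ratio of Jhbp3 was below that of Jhbp2 by -1.68 ± 0.23 (95% interval from -2.13 to -1.24) and below that of Jhbp1 by -0.77 ± 0.19 (from -1.14 to -0.41). The ratio of Jhbp1 was below that of Jhbp2 by -0.91 ± 0.23 (from -1.36 to -0.46). These intervals treat the errors of the probe sets as independent and say nothing of how the genes would vary between batches of flies.

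Jhbp11 (CG17189) was 6.09-fold lower, from 3560 to 585, but its paraquat value was little above the highest absent control of 533. Its array error was accordingly wide (log2 -2.61 ± 0.90, 95% interval from -4.38 to -0.84). With a pseudocount in place of the floor its log2 ratio was -1.93, and raising the floor to the 60th percentile left only a bound (at least 2.66-fold lower). Jhbp5 (CG10407) read 1816 unexposed and 164 with paraquat, the latter under the floor, so only a bound can be given. It was at least 3.80-fold lower against the floor, and at least 3.41-fold lower against the highest absent control. With the floor at the 60th percentile of intensities the bound was 1.36-fold, and at the 80th there was none. With Jhbp5 kept at the floor, the median log2 ratio of the then 9 probe sets was -1.83.

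The 95% intervals of array error of the other measured members included 0. Jhbp7 (CG11852), whose gene lies next to takeout, read 1693 unexposed and 1080 with paraquat, a log2 ratio of -0.65 ± 0.58 with a 95% interval from -1.78 to 0.49. Jhbp12 (CG13618) read 759 and 752, and its interval from -1.92 to 1.90 spans more than a 2-fold difference either way, so equality is not shown.

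Jhbp4, Jhbp15 and both probe sets of Jhbp6 were under the floor on both arrays, and no ratio is given for them. Jhbp4 (CG10264) read 339 unexposed and 299.7 with paraquat. Jhbp15 (CG17279) read 430.0 unexposed and 122 with paraquat. The Jhbp6 (CG14457) probe sets read 304 and -323 unexposed and -361 and 120.1 with paraquat. Transcripts of these 3 genes were not detectable at this signal. A probe set assigned jointly to Fer1 and Jhbp16 was left out of the family because its signal cannot be divided between the genes.

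**Figure D2:**
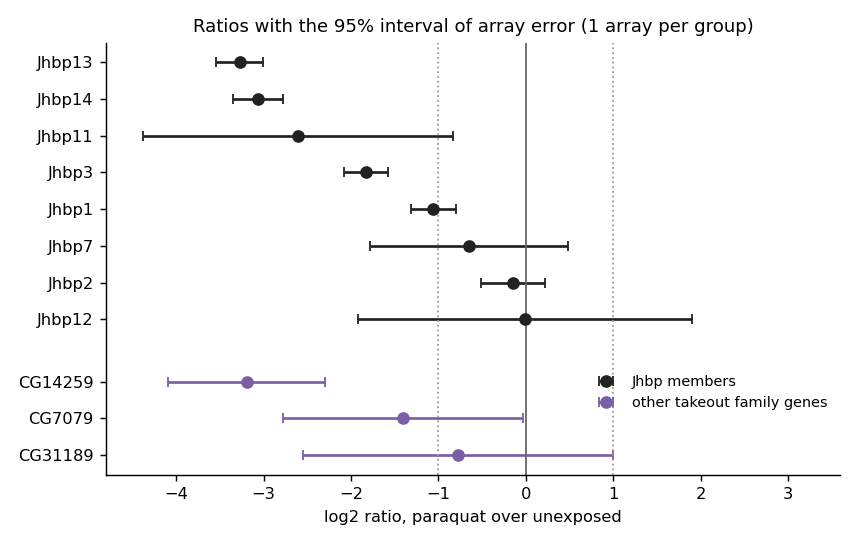
Log2 ratio of paraquat over unexposed for the 8 measured Jhbp members (black) and 3 measured takeout family genes outside the Jhbp names (purple), with bars for the 95% interval of array error and dotted lines at 2-fold. The intervals of Jhbp13, Jhbp14, Jhbp11, Jhbp3 and Jhbp1 lie below 0, and those of Jhbp7, Jhbp2 and Jhbp12 include it.

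**Figure D3:**
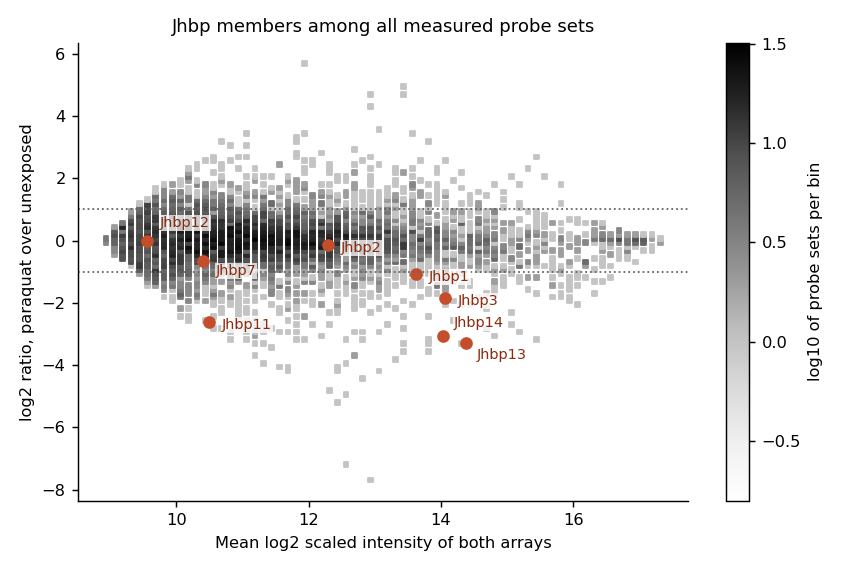
Log2 ratio of paraquat over unexposed against the mean log2 scaled intensity of both arrays, for 7425 measured probe sets in grey bins (darker where a bin holds more) and the 8 measured Jhbp members as labelled points. Jhbp13 and Jhbp14 lie at the lower edge of the bright probe sets, and Jhbp2, Jhbp7 and Jhbp12 lie within the dense band between the dotted 2-fold lines.

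Genes of the takeout family that carry other names were also partly lower. Of 8 listed, 5 had their own probe set and 3 were measured on both arrays. Of these 3, 2 were past 2-fold lower, none was past 2-fold higher, and the median log2 ratio was -1.40. CG14259 was 9.15-fold lower, from 10733 to 1173 (log2 -3.19 ± 0.46). CG7079 was 2.65-fold lower, from 2113 to 799 (log2 -1.40 ± 0.70), and CG31189 had a log2 ratio of -0.77 ± 0.90.

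Among the rest of that list, dyw, the anti-siesta gene daywake, and CG11854 were under the floor on both arrays. The probe annotation used here gave no probe set to takeout itself or to CG31207, and CG34316 shared its probe set with mRpS10. Over both sets of names, 7 of 11 measured genes were past 2-fold lower and none was past 2-fold higher. Among all measured probe sets the shares were 8.22% and 8.15%. Of the 7, 5 are the Jhbp members already counted above, so the pooled count is no separate result.

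The order of genes in the RefSeq table of Release 6, used for names and neighbours alone because no source names the build of the arrays, places several members side by side. Jhbp14 and Jhbp13 are neighbours with near-equal ratios. Jhbp3, Jhbp2 and Jhbp1 are consecutive, with the middle gene nearest to 0. Jhbp4 and Jhbp5 overlap at their ends, and of this pair Jhbp5 alone was above the floor, on the unexposed array.

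CG14259 and Jhbp11 are separated by 1 protein-coding gene, the haemocyte phagocytosis receptor eater. The family genes were 9.15-fold and 6.09-fold lower, and eater had a log2 ratio of -0.55 ± 0.79. The 95% interval of eater, from -2.09 to 0.99, overlaps that of Jhbp11 (from -4.38 to -0.84) but not that of CG14259 (from -4.09 to -2.30). Their differences from eater were not tested. Jhbp15 follows CG31189, CG31207 and CG7079.

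The nearest protein-coding genes outside the family on either side of each run were looked up after the members' values were seen. Of 16 such genes, 8 were measured on both arrays, with a median log2 ratio of 0.16. Of these 8, 1 was past 2-fold lower and 1 past 2-fold higher, beside 8.22% and 8.15% of all measured probe sets. Genes beside members that were not lower or not measured were included. Whether the flanking genes differ from the family was not tested. CG16820, beside Jhbp13, was 2.30-fold lower (log2 -1.20 ± 0.48). It was the only measured flank of the Jhbp14 and Jhbp13 pair, because Mabi on the other side was under the floor on both arrays. Sil1, beside Jhbp7, was 2.60-fold higher (log2 1.38 ± 0.23). The intervals of array error of the other measured flanking genes included 0, so those genes have no clear direction.

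**Figure D4:**
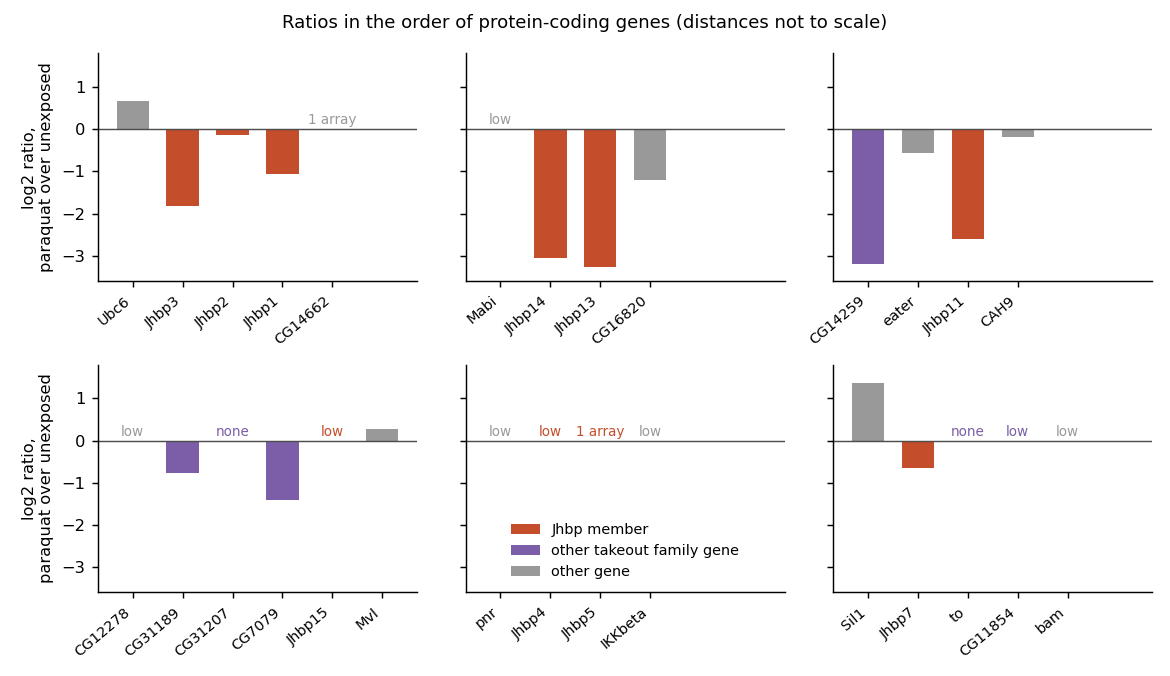
Log2 ratio of paraquat over unexposed for protein-coding genes in their order along the chromosome, in 6 neighbourhoods, with Jhbp members in orange, other takeout family genes in purple and other genes in grey. "Low" marks a gene under the floor on both arrays, "1 array" a gene above it on 1 array, and "none" a gene with no probe set of its own. The Jhbp14 and Jhbp13 bars reach below -3, and in the first panel Jhbp2 stands between the longer bars of Jhbp3 and Jhbp1.

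Markers of several other tissues were read beside the family, and the lists did not all go the same way. Of 6 measured markers of the head fat body, 5 were past 2-fold lower with paraquat, and the median log2 ratio was -2.79. Their 8 probe sets summed to an intensity of 616208 unexposed and 112188 with paraquat, and their measured ratios ranged from the storage protein gene Lsp2 (log2 -7.72 ± 0.97, from 113535 to 539, the latter next to the highest absent control of 533) to the lipid transfer particle gene Apoltp (0.45 ± 0.12). The feeding-responsive peptide gene fit, under the floor with paraquat, was at least 96.5-fold lower (86.4-fold against that control).

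Transcripts of the male reproductive tract, an organ outside the head, were at or above the floor in 16 of 20 probe sets in unexposed heads and in 3 in paraquat heads. Over all 13966 non-control probe sets the numbers were 8333 and 8366. The 16 ranged from Acp26Aa (479, next to the floor of 477) to Mst57Da (9999), so not all were clearly detected. The summed intensities of the list were 51471 and 7899. Measured haemocyte genes had a median of -0.70 (2 of 5 at least 2-fold lower; summed intensity 16592 and 11167), from PPO1 (-1.48 ± 0.40) to srp (0.77 ± 0.37), with NimC1 under the floor on both arrays. Muscle genes had a median of -0.40 over 3 measured genes, 1 of which, the myosin light chain gene Mlc2, was past 2-fold lower (log2 -1.85 ± 0.12). The summed muscle intensities of 116449 and 37883 were mostly Mlc2, and without it they were 12006 and 8875. The flight-muscle gene fln was under the floor on both arrays and Act88F on the paraquat array.

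For antennal support cells 2 genes were measured, and neither was past 2-fold: Obp19d at -0.83 ± 0.12 and lush at 0.34 ± 1.21. Their list summed to 120897 and 67947, nearly all of it Obp19d, and to 1632 and 1074 without it. Gut enzymes went both ways, with Amy-d 2.68-fold higher (log2 1.42 ± 0.23), Mal-A1 2.17-fold lower (-1.12 ± 0.32), a median of -0.21 over 3 genes and sums of 12886 and 14533. The part of these tissues in the Jhbp differences was not tested. In whole heads, fewer cells of a type, less RNA per cell and unequal carry-over of tissue from outside the head cannot be told apart.

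The genes around the hormone itself were measured in part, and their few ratios went both ways. In synthesis, 3 of 7 listed genes were measured on both arrays, of which 1 was past 2-fold higher and none past 2-fold lower. Hmgs, which makes the mevalonate precursor HMG-CoA, read 6551 and 24820 on one probe set (log2 1.92 ± 0.14) and 1441 and 2288 on the other (0.67 ± 0.44), so its probe sets differed in size.

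Idi, the isopentenyl diphosphate isomerase gene, was 1.97-fold higher, from 1300.1 to 2563 (log2 0.98 ± 0.46). The farnesyl diphosphate synthase gene Fpps had a log2 ratio of -0.16 ± 0.40. The phosphomevalonate kinase gene Pmvk was above the floor on the unexposed array alone (876, at least 1.84-fold lower with paraquat, or 1.64-fold against the highest absent control). The gene for the methyltransferase that completes the hormone, jhamt, was under the floor on both arrays (92.7 and 173), as was Mvd.

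In degradation, Jheh2, a juvenile hormone epoxide hydrolase gene, was 2.66-fold lower, from 20629 to 7745 (log2 -1.41 ± 0.14). Jhedup, which resembles juvenile hormone esterase, read 121 unexposed and 568 with paraquat, the latter close to the highest absent control. Jhe, Jheh1 and Jheh3 had no probe set of their own in the annotation used.

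Among receptors and response genes, 4 of 8 were measured on both arrays, 1 past 2-fold higher and none past 2-fold lower, for a median of 0.58. The hormone receptor gene Met read 278 unexposed, under the floor, and 1175 with paraquat, at least 2.46-fold higher against the floor and at least 2.20-fold against the highest absent control. Its paralogue gce was under the floor on both arrays. Kr-h1, a zinc-finger gene induced through the receptor, was 1.62-fold higher, from 2340 to 3784 (log2 0.69 ± 0.28).

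Fkbp39, whose product binds juvenile hormone response elements, was 2.54-fold higher, from 1080 to 2747 (log2 1.35 ± 0.53). Nup358, a nucleoporin gene, had a log2 ratio of 0.47 ± 0.48 and the coactivator gene tai -0.09 ± 1.03. The highest of 3 probe sets for br read 524 on the paraquat array, not above the highest absent control. A list of the ecdysone receptor genes and ecdysone-response genes had 4 measured. Of these, EcR was 2.88-fold higher with a 95% interval from -0.26 to 3.32 in log2. A second EcR probe set was under the floor on both arrays (216 unexposed and 404 with paraquat). In that list usp (0.42 ± 0.65), ftz-f1 (0.13 ± 0.35) and Hr3 (0.01 ± 1.15) had log2 ratios inside their array error, and a second Hr3 probe set passed the floor with paraquat only (at least 2.23-fold higher, or 1.99-fold against the highest absent control). The bounds of Met, Pmvk and Hr3 are all smaller than 1 SE of array error with both arrays at the floor (1.54 in log2). For these genes the brighter value lies above the floor, where that error is smaller, so 1.54 overstates it. No error is given for the bounds themselves.

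**Figure D5:**
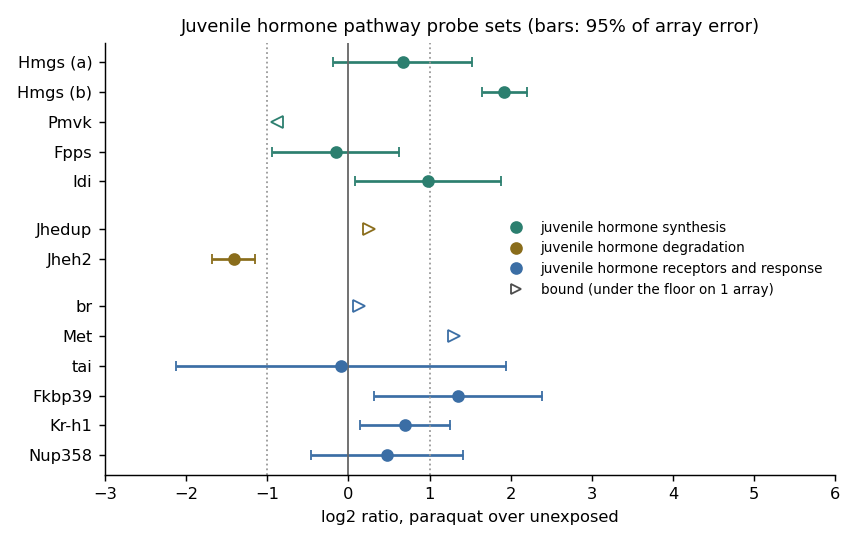
Log2 ratio of paraquat over unexposed for probe sets of juvenile hormone synthesis (green), degradation (brown) and receptor and response genes (blue), with bars for the 95% interval of array error and open triangles for bounds of probe sets under the floor on 1 array. Jheh2 is the only probe set measured on both arrays past 2-fold lower, and the second Hmgs probe set and Fkbp39 are past 2-fold higher.

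Likeness to the members was measured as the Euclidean distance between log2 intensities on both arrays, over 6561 measured single-symbol probe sets and only 2 arrays. The distances also carry probe affinity. Nearest to Jhbp13 was its neighbour Jhbp14 (distance 0.51), followed by CG16704 (0.56) and the cytochrome P450 gene Cyp313a1 (0.57). The gaps between these distances are smaller than the array error of the Jhbp13 ratio (0.14 in log2), so their order is not resolved. Nearest to Jhbp14 were CG15096 (0.36), CG16704 (0.36) and the acyl-CoA binding protein gene Acbp2 (0.49). Nearest to Jhbp11 were Anp, an antibacterial peptide gene of the male ejaculatory duct (0.15), CG9400 (0.20) and CG3699 (0.32). The paraquat values of Jhbp11 (585), Anp (575), CG9400 (672) and CG3699 (645) were little above the highest absent control of 533. The array error of the Jhbp11 ratio (0.90 in log2) is larger than these distances, so their order is not resolved.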

How the data were processed

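The deposited table holds 1 intensity per probe set and array on a linear scale, with negative values. Per the labels' protocols the arrays were Affymetrix DrosGenome1 GeneChips. On both arrays the deposited intensities had a mean of 2500 once 2% of values at each end were removed, which shows the authors' scaling. The summary software was not given in the sources used here.

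Both arrays were scaled to a common median of 825.2 over non-control probe sets (factors 1.01 unexposed, 0.99 paraquat). The floor was set at the 40th percentile of the average of the arrays, and log2 ratios were taken above it. Array error combined the SD of 46 absent-control values (358) with the SD of log2 ratios of 9 spiked-in controls (0.12). It came to 1.54 at the floor, and the number of arrays limits all precision. Where a gene had several probe sets, the log2 ratios of those measured were averaged.

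The platform annotation (2016) gave 1 symbol to 12443 probe sets, several to 327 and none to 1196. All 13 Jhbp probe sets matched the RefSeq gene table. Members and lists were chosen with earlier results of these data known. Named by rule were all members, up to 4 genes with the largest ratios in each takeout, juvenile hormone and ecdysone list, genes of these lists measured on 1 array, and the 3 nearest probe sets of the 3 members with the largest ratios. Named outside it, after their values were seen, were genes of these lists under the floor, flanking genes and the tissue markers. The ratio calculation was tested on simulated data, with changes placed in bright probe sets alone and noise drawn from the same array error. That test therefore does not cover ratios near the floor or the size of the array error. Python 3.11.15, pandas 2.3.3, numpy 2.4.6 and statsmodels 0.14.6 were used. Floors, pseudocount, scaling and fold size were varied.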

Additional observations from a re-analysis of the deposited data

Results flagged for a closer look

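The probe set assigned jointly to Fer1 and Jhbp16, which enters no comparison, read 659 on the paraquat array, above the highest absent control there (533), and 135 on the unexposed array, under the floor. Its signal cannot be assigned to either gene, and the array error at the floor (1.54 in log2) is wider than the bound of at least 1.38-fold.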

How the results depend on the processing

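The count of Jhbp members at least 2-fold lower was 5 with a pseudocount in place of the floor, on deposited values, after quantile normalization, after loess and with the floor at the highest absent control, a setting chosen after seeing the data. Over those settings, from 5.60% (pseudocount) to 8.69% (loess) of all measured probe sets were at least 2-fold lower. The member count was 4 of 5 measured with the floor at the 60th or 80th percentile, beside 6.54% and 6.72% of all measured probe sets. Counting from 1.5-fold gave 6 lower (17.4% of all measured probe sets) and from 3-fold gave 4 (3.10%). No member was counted as higher in any of these settings, beside shares of all measured probe sets from 2.37% (3-fold) to 19.1% (1.5-fold). The median log2 ratio was -1.83 at either of these higher floors and with Jhbp5 kept at the floor (chosen after seeing the data), where fewer or more members entered it, and lay within 0.12 of -1.44 elsewhere. The log2 ratio of Jhbp12 changed sign to 0.020 on deposited values, a shift that follows from the scaling factors. Jhbp13 ranged from -3.27 to -3.10, Jhbp14 from -3.06 to -2.95, Jhbp3 from -1.83 to -1.74, Jhbp1 from -1.06 to -1.02 and Jhbp11 from -2.67 to -1.93. With the floor at the 60th percentile Jhbp11 had only a bound (at least 2.66-fold lower), and so did Jhbp5 (at least 1.36-fold) and Jhbp7 (at least 1.27-fold), and at the 80th percentile these 3 had neither ratio nor bound. The floor at the 20th percentile was not run because that percentile, -20.4, is below 0 and has no log2. No paired analysis was possible because each group held 1 array, and no replicate could be left out. Signal over background limits Jhbp4, Jhbp6, Jhbp15, Jhbp12 and the paraquat values of Jhbp5 and Jhbp11.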
